A study of Danio rerio with 27 samples.

Results

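The genes described here are ligands of the tumor necrosis factor (TNF) family and the receptors through which such ligands can signal cell death. They were chosen by symbol: the rows of the expression table whose gene name is tnfa, tnfb, tnfsf10, tnfsf10l, tnfrsf1a, tnfrsf1b, fas or faslg. Of these 8 genes, 6 had a row among the 24101 genes of the table, and each of the 6 symbols stood for a single identifier. The other 2, tnfa and faslg, had no row and were not analysed here.

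TNF family ligands are made as membrane proteins that can be shed, and they act as trimers that draw receptor chains together. Receptors with a cytoplasmic death domain, such as Tnfrsf1a and Fas, can recruit the adaptor Fadd and initiator caspases, which leads to apoptosis, or Ripk1 and Traf proteins, which leads to NF-kB and MAP kinase signaling and survival. The outcome is set in part by inhibitors such as A20 (the product of tnfaip3) and c-FLIP (the product of the cflar genes). Tnfb is 1 of the zebrafish TNF proteins, tnfsf10 encodes the ligand known in mammals as TRAIL, and tnfsf10l encodes a related ligand.

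RNA was sequenced from whole larvae of the AB strain of zebrafish, with 3 libraries in each of 9 groups. From 96 h post fertilization (hpf) larvae were kept for 12 h at 10 °C, a lethal cold stress, or at 28 °C, the normal rearing temperature. During that time they were given 0.5 μM AS1842856, an inhibitor of the transcription factor Foxo1 (10C-AS and 28C-AS), 5 μM PD0325901, an inhibitor of the ERK kinase MEK (10C-PD and 28C-PD), 50 μM SB203580, an inhibitor of p38 MAP kinases (10C-SB and 28C-SB), or 0.1% DMSO, the vehicle (10C-DMSO and 28C-DMSO). Untreated larvae taken at 96 hpf, the start of the exposure, formed the last group (96hpf). Larvae were pooled in a tube at the end of treatment, and any dead fish were removed first. The paper states that survival of larvae at 10 °C is hard to judge when the exposure ends. The cold libraries may therefore include larvae that would have died later. The labels do not say whether the 3 libraries of a group came from separate clutches, so p-values measure only the spread between these samples, which may be technical. In RNA of whole larvae, a lower level through fewer cells of a type and through less RNA per cell cannot be told apart.

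Levels are given as scaled TPM. TPM is the length-corrected share of a library's transcripts brought to a fixed total, here divided by a size factor of the library. Values summed to between 996255 and 997428 TPM per library. TPM keeps no depth, and the read numbers that the study reports were not used here, so the reads behind each value are not given. Mitochondrial transcripts took between 7.30% and 12.9% of the TPM. In both vehicle groups replicate 1 had a lower mitochondrial share than the other libraries of its group, with 8.42% against 11.2% and 11.4% in 10C-DMSO and 7.30% against 9.91% and 9.69% in 28C-DMSO. The lowest correlation within a group was 0.966, between 10C-DMSO replicates 1 and 3. Markers of muscle, liver, pancreas, retina and skin were present in every library. A gene was called changed when limma's Benjamini-Hochberg adjusted p, taken over all 24101 genes, was 0.05 or less and the fold was 1.5 or more, which is 0.585 on the log2(scaled TPM + 1) scale. Fold changes on that scale understate the change of genes near 1 scaled TPM.

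In vehicle-treated larvae, 2 of the 6 genes were called after 12 h at 10 °C, in opposite directions: the ligand tnfb was higher and the ligand tnfsf10 was lower than in larvae kept at 28 °C. Of all genes tested in this comparison, 15.8% were called. The ligand tnfsf10l and the receptors tnfrsf1a, tnfrsf1b and fas were not called.

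The tnfb gene (ENSDARG00000013598), which encodes a TNF cytokine, had 7.23, 6.16 and 6.38 scaled TPM in the 10C-DMSO libraries, against 0.502, 0.424 and 0.347 scaled TPM in the 28C-DMSO libraries. Every cold library lay above every warm one. The table lists only genes at 1 TPM or more in all libraries of some group, and tnfb met that in all 4 groups at 10 °C and in 0 of the 5 others, so it was listed through the groups where it is high and its cold direction was set by that filter. The size of its difference is therefore given as a description with limma's values, and the count of genes called rests on this listing too. The group means were 6.59 ± 0.566 in 10C-DMSO and 0.425 ± 0.0775 in 28C-DMSO (SD, n = 3 each), a 15.5-fold ratio of scaled TPM. On the log2(scaled TPM + 1) scale the change was 2.41 (95% interval 2.16 to 2.66, limma adjusted p = 8.72e-13). The warm value is below 1 scaled TPM, where the ratio is least certain.

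The tnfsf10 gene (ENSDARG00000057241), which encodes the TRAIL-like death ligand, had 2.73, 2.75 and 2.85 scaled TPM in 10C-DMSO, against 18.5, 19.1 and 21.8 scaled TPM in 28C-DMSO. The cold libraries were nearly equal to each other and none came near a warm one. Unlike tnfb, tnfsf10 met the listing filter in all 9 groups. Its mean fell to 2.78 ± 0.0649 scaled TPM in 10C-DMSO, which was 14.0% of the 19.8 ± 1.76 scaled TPM in 28C-DMSO (SD, n = 3 each). The log2 change was -2.46 (95% interval -2.59 to -2.33, limma adjusted p = 1.06e-17). Without 10C-DMSO replicate 1 the log2 changes were 2.35 for tnfb and -2.45 for tnfsf10, and without 28C-DMSO replicate 1 they were 2.45 for tnfb and -2.51 for tnfsf10.

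**Figure D1:**
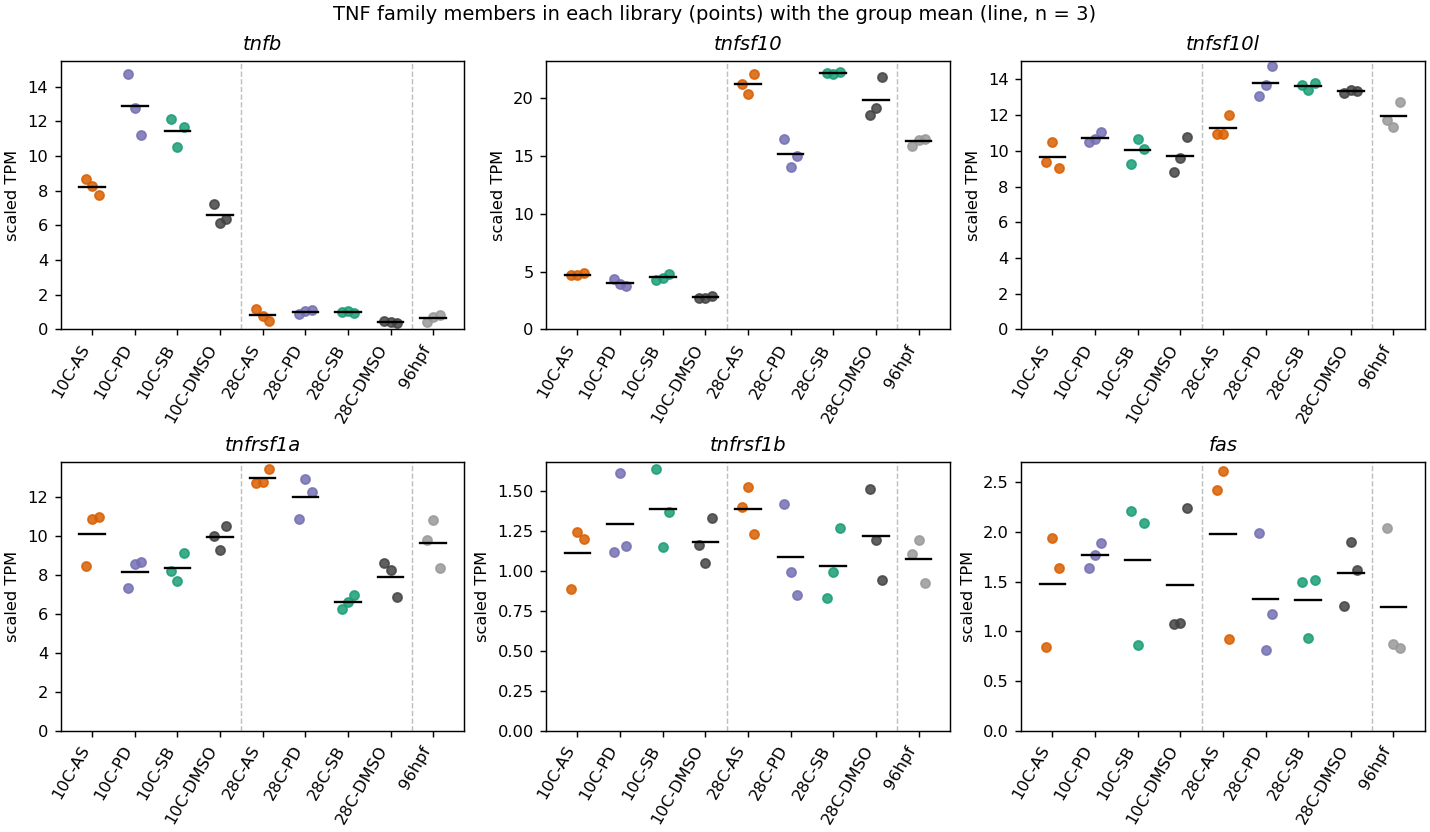
Scaled TPM (y axes, linear, from 0) of the 6 genes in each of the 27 libraries, by group along the x axis; points are libraries and black lines are means of 3. Every 10 °C library of tnfb lies at 6.16 scaled TPM or more and every 28 °C library at 1.18 or less, whereas tnfsf10 reaches at most 4.86 at 10 °C and is at least 14.0 at 28 °C.

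The same 2 genes were called when 10C-DMSO was compared with the larvae taken at the start of the exposure, where 12.4% of all genes were called. Here too the direction of tnfb was set by the listing filter, and its values are a description. The tnfb level averaged 6.59 ± 0.566 scaled TPM in 10C-DMSO and 0.662 ± 0.223 in 96hpf (SD, n = 3 each), and the log2 change was 2.2 (limma adjusted p = 5.71e-12). For tnfsf10 the 10C-DMSO libraries held 2.73, 2.75 and 2.85 scaled TPM, against 15.9, 16.4 and 16.4 in 96hpf, and the log2 change was -2.19 (limma adjusted p = 9.29e-17). The cold level of tnfsf10 was thus below its level before the exposure, and not only below that of warm larvae of the same age. This comparison and the one above share the 10C-DMSO libraries. During the same 12 h at 28 °C none of the 6 genes was called, against 2.75% of all genes. In that comparison tnfsf10 had an adjusted p of 0.00812 by limma but a log2 change of 0.27, short of the fold required.

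Each inhibitor was given at both temperatures, so the cold response could be measured in 3 further pairs of groups that share no library with each other or with the vehicle pair. In all of these pairs the same 2 of the 6 genes were called, tnfb higher and tnfsf10 lower. For tnfb the listing filter set this direction in every pair, so the further pairs do not test it. Its values below are a description, and the count of genes called rests on its listing. The shares of all genes called were 22.4% for 10C-AS against 28C-AS, 17.5% for 10C-PD against 28C-PD and 16.2% for 10C-SB against 28C-SB. The log2 change of tnfb was 2.37 under AS1842856, 2.77 under PD0325901 and 2.64 under SB203580, the largest limma adjusted p being 9.5e-13. That of tnfsf10 was -1.95 under AS1842856, -1.69 under PD0325901 and -2.07 under SB203580, the largest limma adjusted p being 7.84e-15. As shares of the warm level, the cold tnfsf10 mean was 22.4% under AS1842856, 26.4% under PD0325901 and 20.4% under SB203580, against the 14.0% of the vehicle pair.

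**Figure D2:**
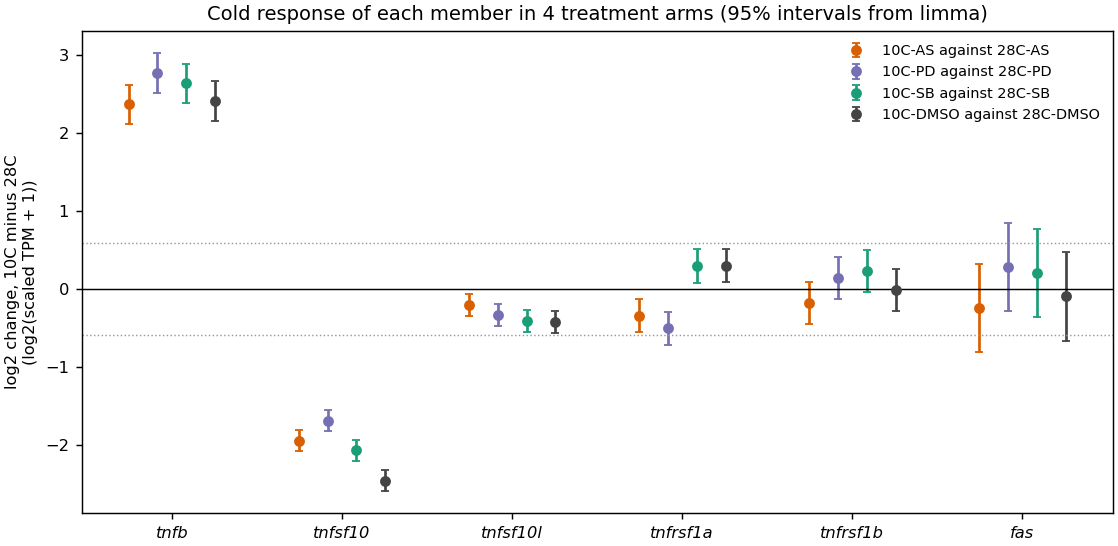
Log2 change (10 °C minus 28 °C, on log2(scaled TPM + 1), y axis) of each gene (x axis) within each inhibitor and within DMSO; points are limma estimates from 3 against 3 libraries, bars are 95% intervals, and dotted lines mark the 1.5-fold threshold. All 4 points of tnfb lie between 2.37 and 2.77 and all 4 of tnfsf10 between -2.46 and -1.69, while no other gene passes a dotted line.

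TPM values are corrected for transcript length, so the 2 ligands can be set beside each other within a library. In all 12 libraries from 10 °C the tnfb level exceeded the tnfsf10 level, by 1.60 to 3.37 times. In all 15 libraries from 28 °C, the 96hpf larvae included, the tnfsf10 level exceeded the tnfb level, by 13.1 to 62.8 times. Over the 9 group means on the log2 scale the correlation of tnfb with tnfsf10 was -0.94. That value is a description of points that fall into a cold and a warm cluster. The cold direction of tnfb, on which these comparisons of the 2 ligands rest in part, was set by the listing filter.

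**Figure D3:**
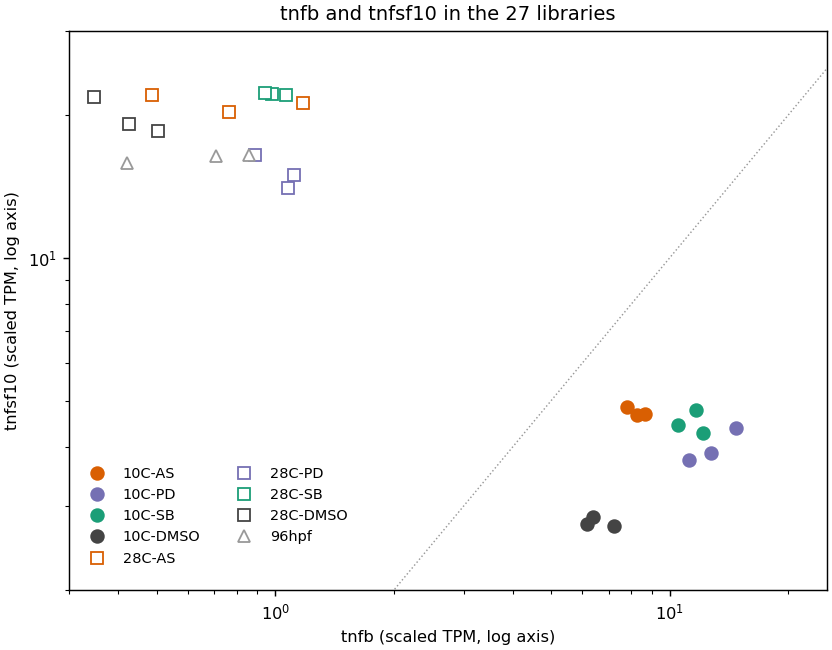
Scaled TPM of tnfb (x axis, log) against tnfsf10 (y axis, log) in the 27 libraries; filled circles are 10 °C groups, open squares 28 °C groups, open triangles 96hpf, and the dotted line marks equal levels. The 12 cold libraries lie right of the line and the 15 others left of it, and among the cold libraries the 10C-DMSO points have the lowest tnfsf10.

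The ligand tnfsf10l (ENSDARG00000004196) shared the direction of tnfsf10 but not the size of its change. It had 8.82, 9.61 and 10.8 scaled TPM in 10C-DMSO, against 13.3, 13.4 and 13.3 scaled TPM in 28C-DMSO. The groups did not overlap, yet the difference was small. The log2 change was -0.42 (limma adjusted p = 4.51e-05), which misses the fold required. The log2 changes were -0.21 under AS1842856, -0.33 under PD0325901 and -0.41 under SB203580, with limma adjusted p of at most 0.0148 and groups that did not overlap in any of these pairs. The 12 libraries at 10 °C had a median of 10.3 scaled TPM and the 12 exposed at 28 °C a median of 13.4 scaled TPM.

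For the receptor tnfrsf1a (ENSDARG00000018569), the death domain receptor for TNF, the sign of the cold difference depended on the inhibitor. Its levels were 10.0, 9.31 and 10.5 scaled TPM in 10C-DMSO, against 8.6, 8.27 and 6.86 in 28C-DMSO. The cold libraries were slightly the higher, with a log2 change of 0.30 (limma adjusted p = 0.0241, or 0.0535 without 10C-DMSO replicate 1). Under SB203580 the log2 change was 0.29, but under AS1842856 it was -0.34 (limma adjusted p = 0.00865) and under PD0325901 -0.51 (limma adjusted p = 0.000426). Over the 14 alternatives of each pair no sign changed. However, limma's adjusted p reached 0.139 in the vehicle pair, 0.118 under SB203580 and 0.0754 under AS1842856, and at most 0.00729 under PD0325901. None of these reached the fold of 1.5, but with TPM as deposited, without size factors, the change under PD0325901 was -0.66 and was called. Among the warm groups, the levels in 28C-AS and 28C-PD were high and those in 28C-DMSO and 28C-SB low.

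The receptors tnfrsf1b (ENSDARG00000070165), which binds TNF but has no death domain, and fas (ENSDARG00000043586), the receptor for Fas ligand, were both near 1 scaled TPM and were not called in any of the 15 comparisons. The listing filter was met by tnfrsf1b in 3 of the 4 groups at 10 °C and 1 of the 5 others, and by fas in 2 and 1. The libraries ranged from 0.828 to 1.64 scaled TPM for tnfrsf1b, with a median of 1.19, and from 0.815 to 2.61 scaled TPM for fas, with a median of 1.62. Within single groups fas varied up to 2.83-fold between libraries. Over the 15 comparisons the log2 changes lay between -0.18 and 0.25 for tnfrsf1b and between -0.24 and 0.37 for fas, and the smallest limma adjusted p was 0.158 for tnfrsf1b and 0.43 for fas. The 95% interval of a difference between 2 groups reached 0.27 to either side for tnfrsf1b and 0.57 for fas on the log2 scale. On that scale, with its pseudocount of 1, these libraries therefore could not show a change of fas much under 1.5-fold. In scaled TPM itself the smallest change that could be shown is larger.

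At 10 °C the inhibitors were compared with the vehicle, in 3 comparisons that share the 10C-DMSO libraries. The ligands tnfb and tnfsf10 were the only ones of the 6 genes called. With AS1842856 only tnfsf10 was called, as higher, against 0.925% of all genes. With PD0325901 only tnfb was called, as higher, against 0.382% of all genes. With SB203580 only tnfb was called, as higher, against 0.0207% of all genes, but which ligand was called depended on the pseudocount: with 0.1 or 0.5 in place of 1, tnfsf10 was called and tnfb was not.

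The tnfsf10 levels were 4.69, 4.67 and 4.86 scaled TPM in 10C-AS, 4.38, 3.88 and 3.75 in 10C-PD and 4.28, 4.45 and 4.79 in 10C-SB, against the 2.73, 2.75 and 2.85 scaled TPM of 10C-DMSO. Every library with an inhibitor exceeded every vehicle library, although all stayed below the lowest level at 28 °C. The log2 change was 0.60 with AS1842856 (95% interval 0.47 to 0.74, limma adjusted p = 1.56e-05). It was 0.54 with SB203580 (adjusted p = 0.000244) and 0.40 with PD0325901 (adjusted p = 0.00165) by limma, both short of the fold required on that scale. The ratio of mean scaled TPM was 1.62 with SB203580 and 1.44 with PD0325901. With SB203580 the log2 change was 0.68 with a pseudocount of 0.1 and 0.61 with 0.5, both called. Without 10C-DMSO replicate 1 the change with AS1842856 was 0.59, still called.

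The tnfb levels were 14.8, 12.8 and 11.2 scaled TPM in 10C-PD, 12.1, 10.5 and 11.7 in 10C-SB and 8.68, 8.27 and 7.78 in 10C-AS, against the 7.23, 6.16 and 6.38 scaled TPM of 10C-DMSO. Again no library with an inhibitor overlapped the vehicle libraries, and the levels of 10C-PD and 10C-SB overlapped each other. The log2 change was 0.87 with PD0325901 (95% interval 0.62 to 1.12, limma adjusted p = 0.000365) and 0.71 with SB203580 (95% interval 0.46 to 0.97, limma adjusted p = 0.0182). With AS1842856 it was 0.29 (limma adjusted p = 0.198). The inhibitor comparisons at 10 °C rest on the spread shared by all 27 libraries: with only the 2 groups compared in the fit, limma's adjusted p was 0.0897 for tnfsf10 with AS1842856, 0.0791 for tnfb with PD0325901 and 0.225 for tnfb with SB203580. The call of tnfb with SB203580 was also lost with a pseudocount of 0.1 or 0.5, where limma's adjusted p was 0.258 and 0.115, and without 10C-DMSO replicate 2 or 3 or without 10C-SB replicate 1 or 3, where the adjusted p lay between 0.0762 and 0.0944 by limma.

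At 28 °C the receptor tnfrsf1a was the only 1 of the 6 genes called in any inhibitor comparison. It was called with AS1842856, as higher, against 12.2% of all genes called. The tnfrsf1a levels were 12.8, 12.8 and 13.5 scaled TPM in 28C-AS and 10.9, 12.9 and 12.3 in 28C-PD, against 8.6, 8.27 and 6.86 scaled TPM in 28C-DMSO. Both inhibitor groups lay wholly above the vehicle. The log2 change was 0.66 with AS1842856 (95% interval 0.44 to 0.87, limma adjusted p = 3.3e-05), and 0.57, no longer called, without 28C-DMSO replicate 3. With PD0325901, where none of the 6 genes was called against 1.49% of all genes, tnfrsf1a had a log2 change of 0.55 (limma adjusted p = 0.00156). That is just short of the fold required on the log2(scaled TPM + 1) scale, while the ratio of mean scaled TPM was 1.52. The log2 change passed that fold without 28C-DMSO replicate 1, with 0.61, or without 28C-PD replicate 1, also with 0.61.

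None of the ligands was called at 28 °C. The tnfsf10 levels were 16.5, 14.0 and 15 scaled TPM in 28C-PD, all below the 18.5, 19.1 and 21.8 of 28C-DMSO, with a log2 change of -0.37 (limma adjusted p = 0.000887) that misses the fold required. The tnfb level was low in all 28 °C groups, with means of 1.03 ± 0.121 in 28C-PD, 0.996 ± 0.0636 in 28C-SB and 0.808 ± 0.348 in 28C-AS, against 0.425 ± 0.0775 in 28C-DMSO (SD, n = 3 each). At that level the size of a log2 change follows from the pseudocount: for PD0325901 it was 0.51 with a pseudocount of 1 and 1.11, called, with a pseudocount of 0.1. With SB203580 at 28 °C none of the 6 genes was called, against 0.0207% of all genes, and tnfrsf1a had 6.27, 6.60 and 7.0 scaled TPM, with a log2 change of -0.22 (limma adjusted p = 0.554).

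**Figure D4:**
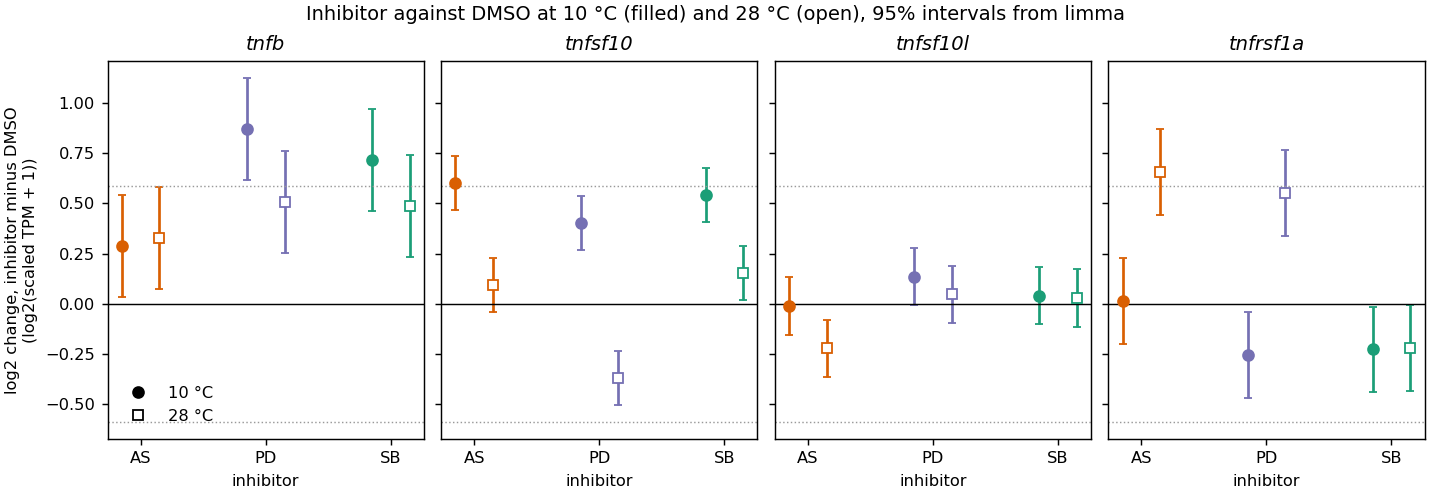
Log2 change (inhibitor minus DMSO at the same temperature, on log2(scaled TPM + 1), y axis) of 4 genes for each inhibitor (x axis); filled circles are 10 °C and open squares 28 °C, bars are 95% limma intervals from 3 against 3 libraries, and dotted lines mark the 1.5-fold threshold. For tnfsf10 the PD0325901 points lie at 0.40 at 10 °C and -0.37 at 28 °C, and for tnfrsf1a at -0.26 at 10 °C and 0.55 at 28 °C.

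Whether an inhibitor acted differently at the 2 temperatures was tested by subtracting the change it gave at 28 °C from that at 10 °C. For PD0325901 this called 2 of the 6 genes, against 1.62% of all genes: tnfsf10 with a difference of 0.77 on the log2 scale (95% interval 0.58 to 0.96, limma adjusted p = 1.63e-05) and tnfrsf1a with -0.81 (95% interval -1.11 to -0.50, limma adjusted p = 0.00202). Under this inhibitor tnfsf10 was thus nearer to the vehicle level of the other temperature on both sides, above the vehicle in the cold and below it in the warm. For AS1842856 only tnfrsf1a was called, with -0.64 (95% interval -0.94 to -0.34, limma adjusted p = 0.0028), against 10.8% of all genes, and the difference of tnfsf10 was 0.51 (limma adjusted p = 0.000322), short of the fold. The tnfrsf1a call for AS1842856 was lost without 28C-DMSO replicate 3, with -0.55, and without 10C-AS replicate 1, with -0.53. For SB203580 none was called, against 0.029% of all genes. The difference of tnfb was not called for any inhibitor and was 0.36 for PD0325901 (95% interval 0.0042 to 0.72, limma adjusted p = 0.285).

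By mean level, tnfb ran from 12.9 ± 1.78 scaled TPM in 10C-PD through 11.4 ± 0.841 in 10C-SB and 8.24 ± 0.449 in 10C-AS to 6.59 ± 0.566 in 10C-DMSO, with all other groups at or below 1.03. In that order only 10C-PD and 10C-SB overlapped among the cold groups. The order of tnfsf10 began with 22.1 ± 0.0740 scaled TPM in 28C-SB, 21.2 ± 0.868 in 28C-AS and 19.8 ± 1.76 in 28C-DMSO, followed by 16.2 ± 0.319 in 96hpf and 15.2 ± 1.22 in 28C-PD. The cold groups ended it, with 4.74 ± 0.103 in 10C-AS, 4.51 ± 0.259 in 10C-SB, 4.01 ± 0.333 in 10C-PD and 2.78 ± 0.0649 in 10C-DMSO (SD, n = 3 each). For tnfrsf1a the highest mean was 13 ± 0.387 scaled TPM in 28C-AS and the lowest 6.62 ± 0.366 in 28C-SB.

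Some other genes had 9 group means that correlated closely with those of these genes. For tnfb the 3 highest correlations were those of kcna1a, a potassium channel gene (r = 0.993), ier5l, an immediate early response gene by its name (r = 0.993), and chsy3, a chondroitin synthase gene (r = 0.991). For tnfsf10 they were prkcbp1l (r = 0.996), gata5, a transcription factor of heart and gut endoderm (r = 0.989), and asb3 (r = 0.989). For tnfsf10l they were sppl2, wacb and hnf1ba, with r between 0.985 and 0.992, and for tnfrsf1a usp14, pfn2l and actr1, with r between 0.950 and 0.964. These are the highest of 10588 genes and are given as a description. Over the 27 libraries their r was lower, between 0.646 (actr1) and 0.984 (ier5l). A high r does not mean a change of like size. The group means of kcna1a ran only from 6.51 to 9.18 scaled TPM, those of tnfb from 0.425 to 12.9. For the ligands the pattern is mostly cold against warm. For tnfrsf1a it is not: its means were highest in 28C-AS and 28C-PD and lowest in 28C-SB and 28C-DMSO.

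The wider pathway was followed with 6 lists of TNF family, adaptor, ubiquitin, caspase and inhibitor genes, of whose 111 symbols 77 were found, under 86 identifiers. In 10C-DMSO against 28C-DMSO, 14 of the 86 were higher and 5 lower, which is 22.1% called beside 15.8% of all genes, and the median log2 change was -0.014 against -0.0047 over all genes. In the inhibitor pairs 16 were higher and 5 lower under AS1842856 (24.4% beside 22.4% of all genes), 17 higher and 6 lower under PD0325901 (26.7% beside 17.5%), and 16 higher and 4 lower under SB203580 (23.3% beside 16.2%). Against the 96hpf larvae 13 were higher and 5 lower in 10C-DMSO, or 20.9% beside 12.4% of all genes. Over all genes 8.73% were higher and 7.06% lower in 10C-DMSO than in 28C-DMSO, which is the background for the counts of single lists below, and with so few members none of these counts was tested against it. No adaptor or death domain kinase, out of 15 identifiers, was called in the vehicle pair, and neither was any of the 4 other ligands found. In the inhibitor pairs, adaptors and kinases had 1 higher and 2 lower under AS1842856 (20% beside 22.4% of all genes). Under PD0325901 and SB203580 they had 1 lower each (6.67% beside 17.5% and 16.2%). Of the 4 other ligands, 2 were lower under PD0325901 (50% beside 17.5%) and 0 were called under AS1842856 or SB203580.

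Among the 12 other TNF family receptors, 3 were higher and 1 lower in 10C-DMSO than in 28C-DMSO, where 15.8% of all genes were called in either direction. The receptor gene tnfrsfa had 17.2 ± 2.00 scaled TPM in 10C-DMSO and 8.53 ± 0.783 in 28C-DMSO. The immune costimulatory receptor gene cd40 had 5.45 ± 0.677 in 10C-DMSO and 3.00 ± 0.725 in 28C-DMSO, and tnfrsf11b, the gene of the decoy receptor osteoprotegerin, was also higher. The hematopoietic death receptor gene hdr was lower, with 4.86 ± 0.703 scaled TPM in 10C-DMSO and 10.6 ± 1.23 in 28C-DMSO (log2 change -0.99, limma adjusted p = 1.04e-06). In the inhibitor pairs this receptor list had 1 higher and 0 lower under AS1842856 (8.33% beside 22.4% of all genes). It had 2 and 0 under PD0325901 (16.7% beside 17.5%) and 2 and 0 under SB203580 (16.7% beside 16.2%). The lower call of hdr was thus not repeated in these pairs.

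Of the 23 identifiers of Traf, ubiquitin and Tak1 genes, 4 were higher and 3 lower in 10C-DMSO, or 30.4% beside 15.8% of all genes. The adaptor genes traf3 and traf6 were higher, with log2 changes of 1.14 and 1.06, and traf2a and traf4b lower, with -0.91 and -0.79. The list of 16 caspase and activator identifiers had 2 higher and 1 lower, or 18.8% beside 15.8%. These were casp2, an initiator caspase gene, with 109 ± 12.9 scaled TPM in 10C-DMSO and 66.0 ± 4.73 in 28C-DMSO, 1 of the 2 identifiers named bida, and diablob, an antagonist of caspase inhibitors, which was lower (log2 change -0.59). The split of reads between identifiers of the same name is uncertain. In the inhibitor pairs this caspase list had 5 higher and 1 lower under AS1842856 (37.5% beside 22.4% of all genes). Under PD0325901 it also had 5 and 1 (37.5% beside 17.5%), and under SB203580 5 and 0 (31.2% beside 16.2%). Its sums lay between 305 and 355 scaled TPM at 10 °C and between 232 and 273 at 28 °C. These counts were not tested against the background.

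The inhibitors of death receptor signaling had 5 of 16 identifiers higher and 0 lower in 10C-DMSO, beside 8.73% higher and 7.06% lower of all genes, and a median log2 change of 0.36. The NF-kB inhibitor gene tnip2 had 7.37 ± 0.599 scaled TPM in 10C-DMSO and 1.15 ± 0.13 in 28C-DMSO (log2 change 1.96, limma adjusted p = 8.45e-14). Its log2 change was 1.88 under AS1842856, 2.22 under PD0325901 and 1.97 under SB203580. Also higher were tnfaip3, the A20 gene, with 6.03 ± 3.25 in 10C-DMSO and 1.57 ± 0.189 in 28C-DMSO, cflara, a c-FLIP gene, with 11.9 ± 1.33 in 10C-DMSO and 5.34 ± 0.926 in 28C-DMSO, faim2b, which encodes an inhibitor of Fas signaling, and 1 of the 2 identifiers named xiap, a caspase inhibitor gene.

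The inhibitors were followed in the wider pathway too. At 10 °C, against 10C-DMSO only diabloa was called with AS1842856, as lower, or 1.16% of the 86 identifiers beside 0.925% of all genes. With PD0325901 and SB203580 0 of the 86 were called, beside 0.382% and 0.0207% of all genes. These shares are so low that few or 0 calls among 86 identifiers are near the background. In each case limma's adjustment runs over all genes. At 28 °C 10 of the 86 were called with AS1842856, 3 higher and 7 lower, a share of 11.6% near the 12.2% of all genes. With PD0325901 and SB203580 0 were called, beside 1.49% and 0.0207% of all genes. The caspase list held 5 of those lower with AS1842856 and 0 higher, or 31.2% of its 16 identifiers beside 12.2% of all genes. That count was not tested against the background. Among those lower was casp3a, the executioner caspase 3 gene, with 29.9 ± 1.38 scaled TPM in 28C-AS and 55.3 ± 8.53 in 28C-DMSO. Likewise casp9, an initiator caspase gene, had 4.36 ± 0.436 in 28C-AS and 8.35 ± 0.368 in 28C-DMSO. The adaptor gene traf2b was higher in 28C-AS, with a log2 change of 0.63.

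Leukocytes are a main source of TNF family ligands, and their markers were summed, with those of epidermis and endothelium. The macrophage list, of 14 identifiers, summed to between 118 and 148 scaled TPM at 10 °C and between 109 and 156 at 28 °C. In the vehicle pair, where 15.8% of all genes were called, 0 of these identifiers were higher and 1 lower. The 11 identifiers of the general leukocyte list summed to between 114.8 and 125 scaled TPM at 10 °C and between 90.3 and 120.1 at 28 °C, with 0 higher and 2 lower (ikzf1 and spi1b). The 9 neutrophil identifiers summed to between 923 and 1172 scaled TPM at 10 °C and between 1096 and 1482 at 28 °C, with 0 higher and 1 lower in the vehicle pair. That 1 was cpa5, which alone had 671 ± 46.7 scaled TPM in 10C-DMSO and 1074 ± 34.5 in 28C-DMSO. The other 8 summed to between 325 and 412 scaled TPM in 10C-DMSO and between 350 and 424 in 28C-DMSO. The 4 T cell and thymus markers found, of 12 listed, summed to between 8.73 and 12.4 at 10 °C and between 5.08 and 8.33 at 28 °C, with tagapa and ccr9a called higher in the vehicle pair. In 28C-AS tagapa and ccr9a had means of 0.602 and 0.908 scaled TPM, against 2.57 and 1.98 in 10C-AS. At such warm levels the listing filter may have set their cold direction, so these calls and this sum are a description. Of 20 epidermis identifiers, under 15 symbols, 5 were higher and 1 lower in the vehicle pair, or 30% beside 15.8% of all genes. Under AS1842856 8 were higher and 1 lower (45% beside 22.4% of all genes). Under PD0325901 6 were higher and 0 lower (30% beside 17.5%), and under SB203580 also 6 and 0 (30% beside 16.2%). None of these counts was tested against the share over all genes. The largest change in the vehicle pair was that of the tight junction gene cldnb. It had 387 ± 9.83 scaled TPM in 10C-DMSO and 68.5 ± 10.3 in 28C-DMSO, a log2 change of 2.49 (limma adjusted p = 2.77e-15). The marker that went lower was tp63, with 7.48 ± 0.128 scaled TPM in 10C-DMSO and 14.2 ± 0.992 in 28C-DMSO. Its log2 change was -0.83 (limma adjusted p = 3.95e-05), and -0.79 under AS1842856. The epidermis list summed to between 9269 and 12380 scaled TPM at 10 °C and between 6719 and 10263 at 28 °C. Of 12 endothelium identifiers 1 was higher and 2 lower in the vehicle pair, and their sums lay between 119 and 142 scaled TPM at 10 °C and between 125 and 152 at 28 °C. In 28C-AS, where tnfrsf1a was higher, the neutrophil sum was between 1096 and 1183 scaled TPM, against 1443 to 1482 in 28C-DMSO, and without cpa5 between 162 and 208, against 350 to 424. Other sums were lower there too: macrophages 109 to 124 against 135 to 147, and general leukocytes 90.3 to 99.4 against 106 to 120. Epidermis had 7272 to 8304 against 9016 to 10263, and endothelium 125 to 131 against 143 to 152. The T cell sums overlapped. In 28C-PD, where tnfrsf1a also lay above the vehicle, the neutrophil sum without cpa5 was 296 to 344. It was much the same, 296 to 343, in 28C-SB, which had the lowest tnfrsf1a mean. Other sums in 28C-PD were 137 to 156 for macrophages, 95.7 to 99.3 for general leukocytes, 6719 to 7270.5 for epidermis and 137 to 145 for endothelium. The part of these cell markers in the results for the TNF family genes was not tested.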

How the data were processed

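Whole zebrafish larvae were analysed by RNA sequencing in 27 libraries. Per the study's methods, the authors assigned reads to Ensembl cDNA sequences with Salmon 0.13.1, correcting GC, sequence and position bias, and summed transcripts to genes with tximport. The authors deposited TPM values, for the genes that reached 1 TPM in every replicate of some group, as all 24101 did. The read numbers that the study reports were not used, so no counting error is given.

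TPM values were divided by median-of-ratios size factors (0.940 to 1.11) and a pseudocount of 1 was added before log2. All 27 libraries entered a single linear model of the 9 group means, fitted with limma 3.58.1 in R 4.3.3 (18 residual degrees of freedom, trended prior), and p-values are two-sided. The script was tested on simulated data. An exact permutation of 3 against 3 libraries cannot give a two-sided p below 0.1. The study's own test, which needs read counts, was not used here. The alternatives were other scalings, pseudocounts, filters, fits and left-out libraries. Members and gene lists were chosen with earlier results of these data known. All members were named, with the 3 genes of a group mean of at least 5 TPM whose 9 group means correlate best with each; from the lists, examples that were called. No genome of the files' build was used, so positions and sequences are not given.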

Additional observations from a re-analysis of the deposited data

Results flagged for a closer look

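Inhibitor effects that differed between the temperatures were found for 2 of the genes, by limma's test of the change at 10 °C minus the change at 28 °C. For tnfsf10 the difference was 0.77 for PD0325901 and 0.51 for AS1842856 on the log2 scale, the second short of the fold of 1.5. For tnfrsf1a it was -0.81 for PD0325901 and -0.64 for AS1842856. The comparisons for both inhibitors share the DMSO libraries, so they are not independent of each other.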

How the results depend on the processing

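The higher tnfb level, whose direction the listing filter fixed, and the lower tnfsf10 level in the cold were called under all 14 alternatives of each of the 4 cold comparisons. With only the groups compared in the fit, 0 of the 6 genes were called with AS1842856, PD0325901 or SB203580 at 10 °C, where 1 was called in each before. Leaving out single libraries gave 0 to 1 genes for SB203580 at 10 °C, 0 to 1 for AS1842856 at 28 °C, 0 to 1 for PD0325901 at 28 °C and 0 to 1 for the AS1842856 difference between temperatures. With a pseudocount of 0.1, 2 genes were called for AS1842856 at 28 °C, 2 for PD0325901 at 28 °C and 2 for the AS1842856 difference. For PD0325901 at 28 °C, 1 gene was called with TPM as deposited, 1 with a pseudocount of 0.5 and 1 with library weights. The difference of tnfb for PD0325901, not called, turned to -0.15 with a pseudocount of 0.1. For SB203580 at 10 °C, pseudocounts of 0.1 and 0.5 called tnfsf10 in place of tnfb. In the cold comparison 10C-PD against 28C-PD, TPM as deposited added tnfrsf1a, with -0.66. Of 90 gene and comparison pairs 17 were called, and 22 of the 73 others changed sign under some alternative. Over all genes, fitting only the groups compared called 39 genes for AS1842856 at 10 °C, against 223, and 45 for PD0325901 at 10 °C, against 92; library weights called 137 for AS1842856 at 10 °C.

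Replicate numbers were not taken as pairs, since of 108 correlations between same-numbered libraries only 9 were above 0.1. The data still hint at some shared deviation: 18 of 27 libraries deviated most like libraries of their own number, where 9 would with no such link, and 10C-DMSO with 28C-DMSO gave 0.310, 0.141 and 0.0987. With the replicate block, 2 genes were called in each cold comparison and 1 for each inhibitor at 10 °C, as without it. Levels near 1 scaled TPM, those of fas, tnfrsf1b and warm tnfb, limit what can be seen. Read numbers were not used, so no counting error is given for them.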
